A study of Ovis aries with 6 samples.

Results

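The HOX genes measured here were found by name: every gene probe was taken whose gene name starts with HOX or whose description names a homeobox protein of the Hox-A to Hox-D clusters. This gave 6 genes with 10 probes, HOXA4, HOXA5, HOXA7, HOXC6, HOXC9 and HOXC13, out of 14465 genes and unnamed transcripts with a probe. The family was selected on measured values, since earlier results of these arrays had shown HOXA5, HOXA7 and HOXC13 lower in corneal cells. Every HOX difference between the cell types is therefore a description and not a test. The cells were cultured from sheep (Ovis aries) and were of 2 kinds: skin epidermal stem cells, the progenitors of skin keratinocytes, and epithelial cells of the cornea, the clear front of the eye. Each kind had 3 samples, described as cell lines in the design text, and each sample was labelled with Cy3 and put on 1 Agilent sheep array. The labels give no body site for the skin, no breed, age or passage, and no treatment that separates the groups beyond the tissue of origin.

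HOX genes encode transcription factors with a DNA-binding homeodomain, and they lie in clusters (A to D) in which gene order follows the order of expression along the body axis. Genes at one end of a cluster are used in the neck and upper trunk, and genes at the other end in the lower trunk, tail and limb ends. Cells of adult skin, its fibroblasts above all, are known to keep part of this pattern, with different HOX combinations at different body sites. The corneal epithelium derives from head surface ectoderm, a region in front of the usual anterior limit of HOX expression.

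Probes found by name covered a small share of the family. Of 15008 probes, 13566 were matched to no symbol, so HOX probes without a name on the array would be missed. The sheep RefSeq gene table (assembly ARS-UI_Ramb_v3.0, used for names and neighbour order alone) holds 38 HOX genes, of which 11 are in cluster A, 10 in B, 8 in C and 9 in D. Probes were found for 3 genes of cluster A and 3 of cluster C, and for 0 of clusters B and D. In the table HOXA4 and HOXA5 are neighbours, and HOXA7 lies further along in the same cluster. HOXC6, HOXC9 and HOXC13 lie in this order in cluster C, with HOXC13 at its end. The array files place the probes on no genome, so no positions are given.

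The probes of HOXA4 and HOXA5 are shown because they hold a run in common, and probes of HOX genes can be alike where they cover the homeobox, the conserved part that encodes the homeodomain. They are the array's 60-base representative probes, 5′ to 3′, and capitals mark the 11-base run that both hold.
HOXA4: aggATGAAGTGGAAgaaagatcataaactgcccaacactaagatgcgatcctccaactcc
HOXA5: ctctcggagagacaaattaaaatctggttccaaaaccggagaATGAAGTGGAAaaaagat
The run starts at base 4 of the HOXA4 probe and base 43 of the HOXA5 probe, counted from the 5′ end. Among the 14998 probes of other genes and transcripts, on either strand, 0 hold the 11-base run, 0 share 20 bases with a HOX probe and 3 share 16. This search left out the HOX probes themselves, and the likeness between probes of other pairs of HOX genes is not described here. Cross-hybridisation between HOX probes was not tested.

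Each of HOXA4, HOXA5 and HOXA7 has 2 probes that start 1 base apart and share 59 bases, so the second probe is a repeat measurement of the same stretch. The 2 probes of HOXC13 start 98 bases apart and do not overlap, and HOXC6 and HOXC9 have 1 probe each. HOXC9 alone of the HOX genes was recognised from its description, because its array name is not a gene symbol. That name was not checked against a sequence, so the HOXC9 values are those of a transcript described as Hox-C9.

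Levels are log2 processed signals minus the 75th percentile of the gene spots of the same array, so 0 is a bright gene and −6 is near the background. Differences are taken between arrays for 1 probe at a time. The words dim and bright, and the marker sums below, set different probes side by side and are only a rough guide. The 6 arrays shared 1 slide and 1 scan, but row 1 of the slide held the epidermal samples and row 2 the corneal samples. Position on the slide and cell type cannot be told apart. The share of gene spots well above background was 80.2% ± 2.36 (SD, n = 3) in epidermal and 74.1% ± 1.56 (SD, n = 3) in corneal arrays, and 0 spots were saturated. Precision is limited by having 3 arrays in each group.

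The labelled cell types were checked against marker lists. Of 5 keratinocyte markers with a probe, 3 were well above background on all epidermal arrays and 1 on all corneal arrays. KRT14, a basal keratin, was well above background on 2 epidermal and 0 corneal arrays. TP63, the master regulator of stratified epithelia, was so on 0 of 6 arrays, and no probe was matched to the name KRT5. All 16 mesenchymal markers with a probe were well above background on every epidermal array, and 15 on every corneal array. The summed linear level of the mesenchymal list, in multiples of each array's 75th percentile, ran from 1191 to 1422 in epidermal and from 1131 to 1153 in corneal arrays. The keratinocyte list summed to 0.0903 to 0.101 and 0.0673 to 0.0817. The corneal epithelium list summed to 4.19 to 4.295 in epidermal and 1.36 to 1.44 in corneal arrays, but ALDH1A1 carried this difference. Without it the sums were 1.06 to 1.20 in epidermal and 1.26 to 1.33 in corneal arrays, so the direction turned. Of the 7 corneal markers with a probe, 4 were well above background on all corneal arrays and 5 on all epidermal arrays. These included PAX6, the eye regulator, which was so on all 6 arrays, while KRT19, a limbal keratin, was so on 0. Mesenchymal markers were thus bright in both groups and KRT14 and TP63 at or near background, so the groups are called epidermal and corneal after their labels alone. The part of cell composition in the HOX differences was not tested. In such bulk RNA, fewer HOX-expressing cells and less HOX RNA per cell cannot be told apart.

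All 6 HOX genes were lower in the corneal cells. HOXA5 fell at least 7.21-fold, HOXA7 3.27-fold, HOXC6 3.09-fold, HOXA4 at least 2.05-fold, HOXC13 at least 1.85-fold and HOXC9 1.52-fold. A gene not well above background on any corneal array has only a bound. "At least" sets the epidermal mean against a corneal floor. On each corneal array the floor is the lowest value of any probe well above background, or the value of the gene's own probe where that is higher, and it averaged −6.32. Of the 6 genes, 3 had such bounds and 3 were measured in both groups. These bounds come from the brighter probe of each gene. The other probe gave at least 6.68-fold for HOXA5, 1.62-fold for HOXA4 and 1.37-fold for HOXC13.

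HOXA5, a regulator of patterning around the neck and upper chest and of lung development, had the largest fitted difference and the largest bound. Its levels were −3.57, −3.47 and −3.36 in the epidermal samples and −6.96, −6.75 and −7.88 in the corneal samples, in the order of replicates 1, 2 and 3 as for all genes below. The groups lay far apart, with 3.17 log2 units between the lowest epidermal and the highest corneal array. The processed signals were 92.4, 86.6 and 94.9 in epidermal and 7.24, 8.43 and 3.76 in corneal arrays. All 3 epidermal arrays were well above background and 0 corneal arrays were, although the scanner software marked the corneal signals of this probe as positive and significant on all 3. The means were −3.47 ± 0.11 and −7.20 ± 0.60 (SD, n = 3), a fitted change of −3.73 ± 0.30 (SE) and a bound of −2.85. The second probe, shifted by 1 base, differed from the first by at most 0.096 on any epidermal array and by up to 1.44 on a corneal array, where both were dim.

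HOXA4, its neighbour in the cluster and likewise a gene of the neck and upper trunk, was dim even in epidermal cells. Its levels were −5.28, −5.35 and −5.21 in epidermal and −6.74, −6.43 and −7.56 in corneal arrays. Every corneal array lay below every epidermal one, with a gap of 1.08. The means were −5.28 ± 0.07 and −6.91 ± 0.58 (SD, n = 3), and the fitted change was −1.63 ± 0.29 (SE) with a bound of −1.04. The second probe gave a smaller fitted change of −0.997, with a gap of 0.75 between the groups.

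HOXA7, a trunk gene also studied in keratinocyte differentiation, was well above background on all 6 arrays. Its epidermal level was −0.54 on all 3 arrays, and its corneal levels were −2.25, −2.27 and −2.25. The arrays of a group were almost level with each other, and the groups were 1.70 apart. The processed signals were 754, 658 and 668 in epidermal and 190, 187 and 187 in corneal arrays. The fitted change was −1.71 ± 0.03 (SE), which is 3.27-fold lower. The second probe gave −1.72, and the pair differed by at most 0.10 on any array. HOXA7 was thus lower in the corneal cells but still well above background on 3 of 3 arrays.

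HOXC6, a trunk and limb gene also active in the mammary gland, was clearly measured on all 6 arrays. Its processed signals were 1481, 1254 and 1397 in epidermal and 425, 357 and 410.1 in corneal arrays. Its levels were 0.43, 0.39 and 0.52 in epidermal and −1.09, −1.34 and −1.12 in corneal arrays, with 1.47 between the groups. The fitted change was −1.63 ± 0.08 (SE). HOXC6, like HOXA7, was well above background on all corneal arrays.

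HOXC9, a gene of the chest and lower trunk, had the smallest fitted difference. Its levels were −4.55, −4.60 and −4.66 in epidermal and −5.17, −5.30 and −5.15 in corneal arrays. The groups still did not overlap, with 0.49 between them. The means were −4.60 ± 0.06 and −5.20 ± 0.08 (SD, n = 3), and the fitted change was −0.60 ± 0.05 (SE).

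HOXC13, the last gene of its cluster, is known for control of hair and nail keratins. Its levels were −5.37, −5.42 and −5.49 in epidermal and −8.59, −7.19 and −7.12 in corneal arrays. The corneal arrays were all lower and were spread more widely than the epidermal ones. The means were −5.43 ± 0.06 and −7.64 ± 0.83 (SD, n = 3), and the fitted change was −2.21 ± 0.41 (SE) with a bound of −0.89. The other HOXC13 probe, at a separate place in the transcript, gave −5.92, −5.77 and −5.91 in epidermal and −7.54, −6.72 and −8.06 in corneal arrays. Both probes were well above background on 3 epidermal and 0 corneal arrays, and the groups did not overlap in either.

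**Figure D1:**
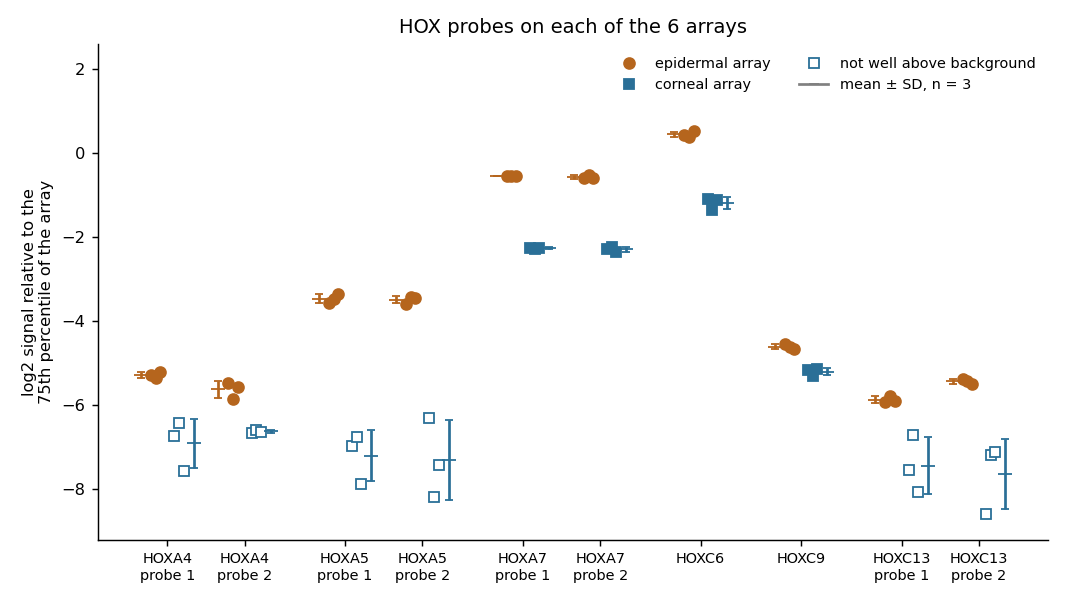
Level of each of the 10 HOX probes on each array (log2 signal relative to the array's 75th percentile), with circles for epidermal and squares for corneal arrays, open where not well above background, and bars for mean ± SD of 3 arrays. In every probe the corneal arrays lie below the epidermal ones; the corneal points of HOXA4, HOXA5 and HOXC13 are open and widely spread, except HOXA4 probe 2, and those of HOXA7, HOXC6 and HOXC9 are filled. Heights are not comparable between probes.

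The corneal arrays lay below the epidermal arrays without overlap in 10 of 10 probes and 6 of 6 genes, where 37.5% of the 11395 genes and transcripts tested did so. In the limma fit across all genes (adjusted p under 0.05), 6 of 6 HOX genes lay past the threshold on the lower side and 0 on the higher, where 33.1% of all tested were called lower and 26.3% higher. HOXA4, HOXA5 and HOXC13 passed the filter on dim probes through the epidermal arrays alone, so they had to differ. The fitted change was at least 2-fold lower in 5 of 6, against 4.04% of all tested, and 4 of 6 were at least 2-fold lower when the dim genes were taken at the bounds of their brighter probes. Nothing is read from these shares, because HOX genes were chosen with this contrast known. The median fitted change of the 6 was −1.67, or −1.33 with the bounds in place of fitted values, and that of all genes tested was −0.05.

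Among the genes measured on both sides, HOXA7 (−1.71 ± 0.03) and HOXC6 (−1.63 ± 0.08) had changes that differed from each other by about the standard error of HOXC6, and HOXC9 changed less than either. The bound of HOXA5 lay beyond the changes of all 3. This rank depended on the processing: with the normexp setting below, HOXA5 (−0.98) changed less than HOXA7 (−1.28) and HOXC6 (−1.31). HOXA4 and HOXC13 could have fallen by more than their bounds, so their place relative to the others, HOXA5 included, is not settled. For HOXC13 the bound was −0.89 with one probe and −0.45 with the other, on either side of the change of HOXC9. Of 10448 genes and transcripts well above background on all 6 arrays, 113 (1.08%) had a larger fall than HOXA7, 120 (1.15%) a larger fall than HOXC6 and 746 (7.14%) a larger fall than HOXC9. Because bounds stand among them, no order of the changes along either cluster is given.

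**Figure D2:**
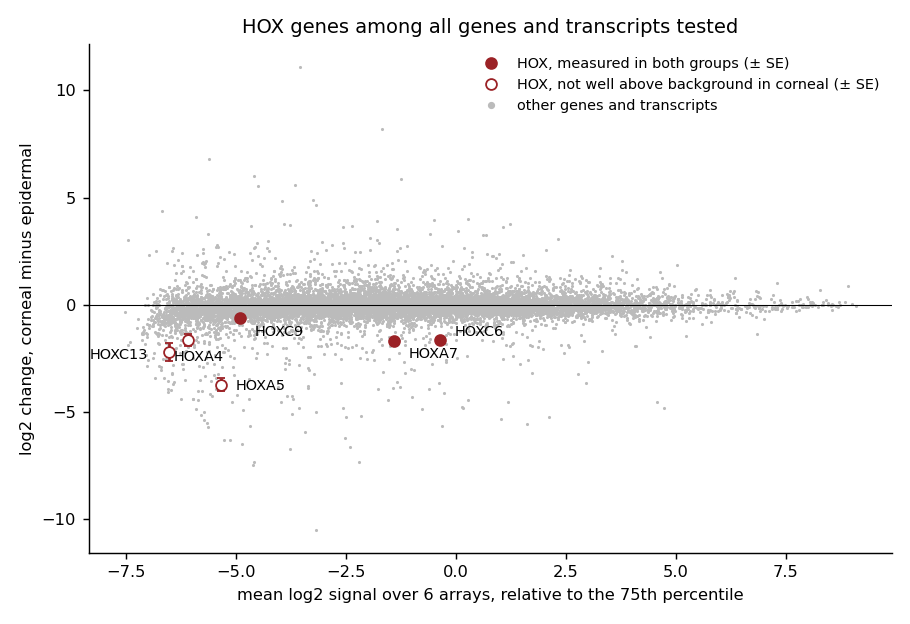
Fitted log2 change, corneal minus epidermal, against mean log2 level over 6 arrays for all 11395 genes and transcripts (grey) and the 6 HOX genes (red, ± SE; open where not well above background in corneal cells). All 6 HOX genes lie below 0, from −0.60 for HOXC9 to −3.73 for HOXA5, and the open symbols sit at the dim end, where changes scatter most.

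In the dim genes the size of the change depended on the processing. The normexp setting started from the mean signal and local background, used an offset of 50 and scaled by quantile normalization. These steps changed together, and the offset by construction shrinks changes of dim probes. With this setting the changes were −0.17 for HOXA4, −0.98 for HOXA5, −0.27 for HOXC13 and −0.11 for HOXC9. The brighter genes moved less, to −1.28 for HOXA7 and −1.31 for HOXC6, so HOXA5 no longer had the largest change. Over all settings tried HOXA7 stayed between −1.88 and −1.28 and HOXC6 between −1.79 and −1.31. All 6 changes were negative in every setting in which the gene was tested. In the authors' deposited table of log2 values, HOXA5 averaged 6.36 in epidermal and 2.89 in corneal cells, HOXA7 9.33 and 7.61, and HOXC6 10.3 and 8.71.

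**Figure D3:**
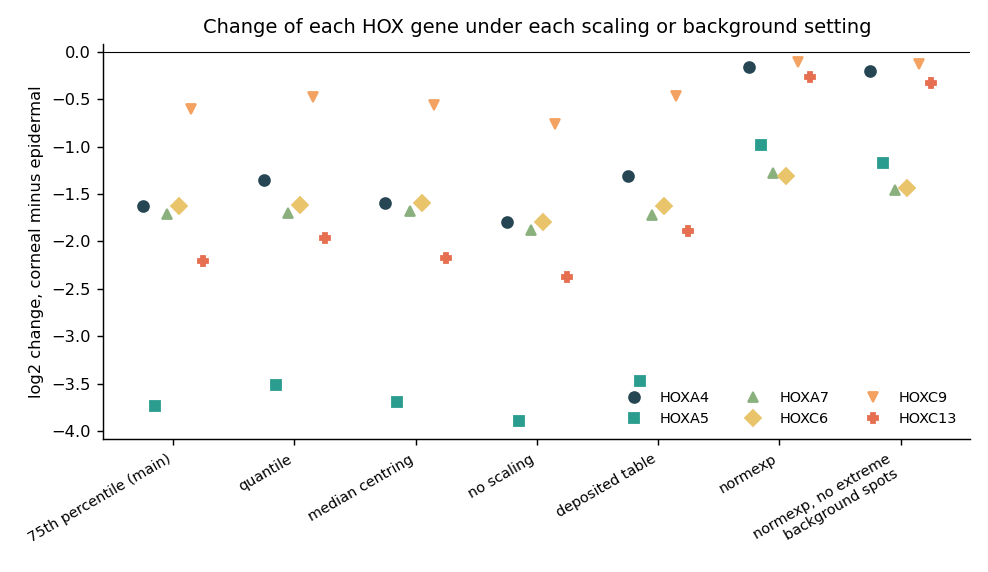
Fitted log2 change, corneal minus epidermal, of each HOX gene (symbols) under each scaling or background setting (horizontal axis). Every symbol lies below 0. Every gene moves towards 0 under normexp, HOXA7 to −1.28 and HOXC6 to −1.31. HOXA4, HOXA5 and HOXC13 move further, and HOXC9 moves by little more than HOXA7.

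Genes that act with HOX genes were next examined in the lists below, for which limma adjusted p-values over all 11395 genes are given and 59.5% of all genes tested were called in either direction. In most of these lists few members were matched to a probe by name. HOX proteins bind DNA with PBX and MEIS cofactors. Of 11 genes of that list, 1 was measured, PBXIP1, a PBX-binding protein, with mean levels (± SD, n = 3) of −2.62 ± 0.10 in epidermal cells and −2.66 ± 0.14 in corneal ones, and a change of −0.03 ± 0.09 (adjusted p = 0.769, limma).

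The Polycomb repressive complexes keep HOX genes silent. Of 4 measured members of 33, 1 was higher, 2 were lower and 1 did not pass, with a median change of −0.15. PHC1, a subunit of the complex that modifies histone H2A, fell from −3.24, −3.26 and −3.35 in epidermal to −4.64, −4.50 and −4.48 in corneal arrays, a change of −1.26 ± 0.06 (adjusted p = 2.01e-05, limma). RBBP7, a histone-binding subunit of the methylating complex, fell by 0.25 ± 0.03 on the log2 scale (adjusted p = 0.0011, limma). EZH1, one of the methyltransferases, rose by 0.16 ± 0.04 (adjusted p = 0.0225, limma). This call was lost without scaling, where the change was −0.0084, and in the absence of epidermal replicate 1 (0.13), corneal replicate 1 (0.13) or corneal replicate 2 (0.16). BMI1, a core subunit, had a change of −0.04 ± 0.05 (adjusted p = 0.452, limma). PHC1 was thus the only member of the 4 with a change beyond 2-fold in this fit. This size depended on the processing: with the normexp setting above, PHC1 was still lower in corneal cells, but by less than 2-fold. The names of PHC1, RBBP7 and EZH1 came from descriptions or older names and were not checked against a sequence.

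Trithorax group proteins and their partners keep HOX genes active. Of 3 measured members of 24, 1 was higher and 2 were lower, with a median change of −0.30. PSIP1, a chromatin reader that brings MLL complexes to HOX genes, fell by 0.91 ± 0.04 (adjusted p = 2.05e-05, limma). KDM6B, a demethylase that removes the Polycomb mark, fell by 0.30 ± 0.03 (adjusted p = 3.08e-04, limma). ASH2L, a core subunit of the methyltransferase complexes, rose by 0.33 ± 0.03 (adjusted p = 4.26e-04, limma), and this call was lost without scaling (0.17). The names of KDM6B and ASH2L came from descriptions or older names that were not checked against a sequence.

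Among known inputs to HOX genes, 5 of 31 were measured, of which 1 was higher, 2 were lower and 2 did not pass, with a median change of −0.54. ALDH1A1, which makes retinoic acid, a classical inducer of HOX genes, had levels of 1.67, 1.63 and 1.61 in epidermal and −3.23, −3.27 and −3.11 in corneal arrays. It was 28.6-fold lower, a change of −4.84 ± 0.05 (adjusted p = 1.72e-07, limma). FGF2, a growth factor, was 1.47-fold higher (0.55 ± 0.11, adjusted p = 0.0078, limma). RXRB, a retinoid receptor, had a change of −0.54 ± 0.19 (adjusted p = 0.0579, limma), and −0.74 without epidermal replicate 2, where it was called lower. YY1, a transcription factor that binds Polycomb proteins, had one of −0.07 ± 0.03 (adjusted p = 0.0826, limma). SHH, a patterning signal, was too dim to be tested. The only listed gene of retinoic acid synthesis matched to a probe by name was therefore lower in the same cells as the HOX genes. A link between them was not tested.

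The homeobox genes outside the HOX clusters that were matched to a probe by name were mostly at background. Of 6 with a probe, 2 were tested. PAX6, which specifies the eye, had levels of −2.67, −2.61 and −2.70 in epidermal and −2.49, −2.23 and −2.36 in corneal arrays. It rose by 0.30 ± 0.07 (adjusted p = 0.0132, limma), opposite to the HOX genes, and the call was lost without scaling (0.13). PAX4, a pancreas gene, had a change of −0.66 ± 0.24 (adjusted p = 0.0571, limma), and −0.91 without epidermal replicate 1, where it was called lower. BARX2, POU1F1 and POU3F4 were among the 4 too dim to be tested. Of 3 other regional transcription factors with a probe, GATA3 (0.06 ± 0.27, adjusted p = 0.862, limma) and HAND1 (0.01 ± 0.04, adjusted p = 0.81, limma) did not pass and GATA6 was too dim. The other probe of each went the opposite way, with a change of −0.19 for GATA3 and −0.12 for HAND1.

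HOXC13 is known to control keratins of the hair shaft, and 17 of 31 entries of that list had a probe. Of these 14 were too dim to be tested, in epidermal as in corneal cells. KRTAP4-3, a hair keratin-associated protein, rose from 0.47 ± 0.02 to 0.90 ± 0.01 (SD, n = 3), a change of 0.43 ± 0.03 (adjusted p = 7.29e-05, limma). Its name came from a description or older name that was not checked against a sequence. KRT38, a hair keratin, had a change of −0.11 ± 0.04 (adjusted p = 0.0634, limma) and its other probe one of −0.92. KRT27, a keratin of the inner root sheath, was well above background on 3 epidermal and 0 corneal arrays. It thus passed the filter through the epidermal arrays alone and has only a bound, at least 1.18-fold lower. Its fitted change was −1.17 ± 0.41 (adjusted p = 0.0522, limma), and it was called lower without corneal replicate 1 (−0.73) or 3 (−1.45). Because of the filter, these KRT27 results are a description and not a test. The list thus had 1 higher, 0 lower and 2 not called among 3 tested at an adjusted p under 0.05 (limma).

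**Figure D4:**
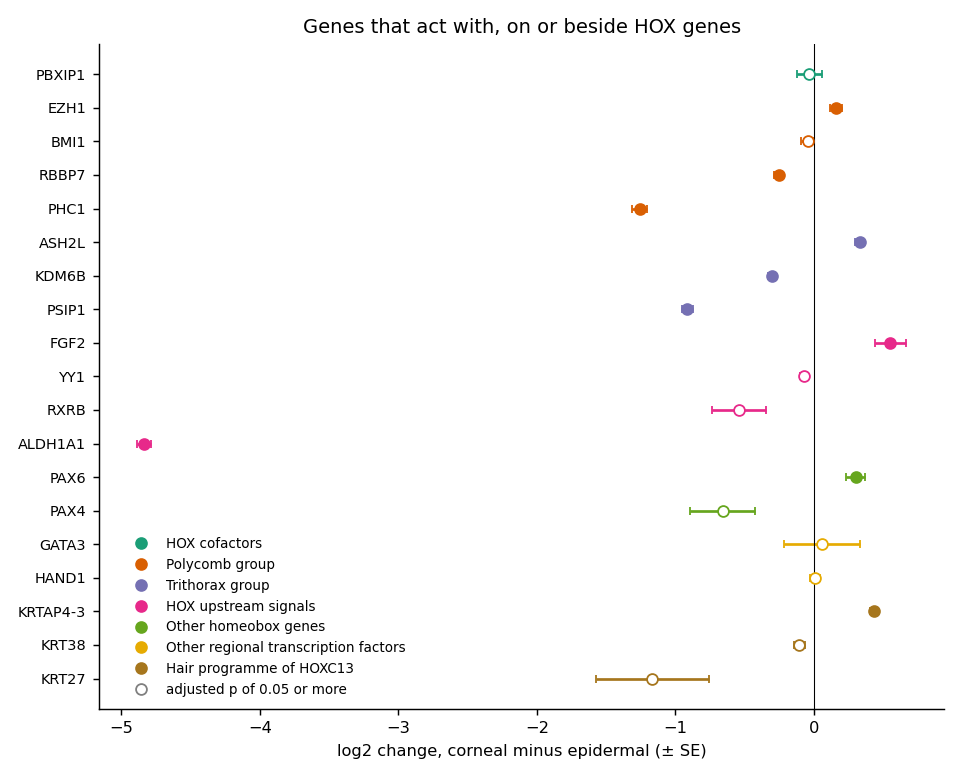
Fitted log2 change, corneal minus epidermal, with SE, of 19 tested members of 7 lists of HOX cofactors, regulators, other homeobox and regional factors and hair genes, coloured by list and open where the adjusted p is 0.05 or more. ALDH1A1 (−4.84), PHC1 (−1.26) and PSIP1 (−0.91) lie furthest to the left among the called genes shown; KRT27 is at background in corneal cells, so its point is not a measured size.

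The genes with a symbol whose profile over the 6 arrays was nearest to each HOX gene well above background on all 6 arrays were ranked by the root mean square difference of log2 levels, each centred on its own mean, over 669 genes. For HOXA7 these were CDKN1C, an inhibitor of the cell cycle (0.052), HSD11B1, which regenerates active glucocorticoid (0.057), and FST, the activin-binding protein follistatin (0.063). For HOXC6 they were FST (0.080), SERPINF1, a secreted inhibitor of vessel growth (0.085), and HOXA7 (0.093). For HOXC9 they were PLAU, the urokinase (0.043), APOBEC3F, a cytidine deaminase (0.045), and PLAUR, the urokinase receptor (0.049). With 2 groups of 3 arrays, a near profile means mainly a change of like size between the groups: CDKN1C changed by −1.76 ± 0.04, HSD11B1 by −1.81 ± 0.03 and FST by −1.62 ± 0.04.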

How the data were processed

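Total RNA of 3 epidermal and 3 corneal samples was hybridised to 1-colour arrays. The authors deposited scanner intensities, for which the submitters' processing notes name Agilent Feature Extraction 10.7. Per the file headers, the processed signal was background-subtracted and detrended, with surrogates for dim spots. A deposited table of log2 values served as an alternative. How it was made is not given in any source used here.

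Control and outlier spots were left out. The log2 processed signal minus the array's 75th percentile was averaged per probe. Of 15008 probes, 11727 well above background on at least 3 of 6 arrays were kept, and the probe with the highest mean stood for a gene. Of all probes, 1442 had a symbol (899 symbols) from accessions, symbols, gene numbers, synonyms or descriptions. The 39 probes named from descriptions or older names were not checked against a sequence. Differences were fitted by lmFit and eBayes of limma 3.58.1 (R 4.3.3), without a block, and adjusted by Benjamini-Hochberg over 11395 genes and transcripts, with a threshold of 0.05. The fit was tested on simulated data. No source says that the samples are separate cultures beyond the word cell lines, so a p-value reflects the spread among these arrays alone, and that spread may be technical.

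The members and all lists were chosen with earlier results of these data known. Named genes were every HOX gene, up to 4 called members per direction of 7 lists, the brightest members of 3 marker lists with KRT5, KRT14, TP63, PAX6 and VIM, and the 3 nearest profiles of each HOX gene measured on all arrays; members that did not pass, untested members, POSTN and COL3A1 are named outside this rule, after their values were seen. Alternatives changed the background correction, scaling, filter, probe summary, naming, replicate block and samples; the marker sums without the brightest member and the bound of each probe were added after seeing the data. Some list members, which the counts of their lists include, and 1 probe sequence are not reported here.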

Additional observations from a re-analysis of the deposited data

How the results depend on the processing

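HOX genes were chosen for being lower on these arrays, so the counts of them called lower describe the settings and show no stability. With probes well above background on all 6 arrays 3 were called, since only 3 were tested, without names from descriptions 5 were, and under each other alternative 6 were. As reported, 33.1% of all genes were called lower. The median HOX change was −0.63 with normexp, −0.75 with normexp without extreme background spots, −1.84 without scaling, and −1.79 to −1.65 with 1 sample left out. Without scaling the median of all genes shifted by −0.17 and higher calls fell from 44.3% to 22.3% of calls. Scaling to the median gave 50.1%.

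No pairing by replicate number was seen: the deviations of same-numbered samples correlated at 0.017, −0.023 and 0.044. These deviations were small, so a weak pairing could be missed. With the replicate number as a block 6073 genes were called against 6776, 6 of them HOX genes called lower, and the count of higher Polycomb genes became 0.

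Counts in the other lists changed as follows. Without scaling, higher calls were 0 in Polycomb, 0 in Trithorax, 0 in other homeobox and 1 in corneal markers, and lower calls were 4 in HOX inputs, 1 in other homeobox, 2 in hair and 2 in keratinocyte genes. Lower keratinocyte calls were 0 with normexp, quantile normalization and the deposited table. Without a filter, hair genes had 5 higher and 1 lower. The filter on all 6 arrays gave 1 lower other homeobox gene. Without description names, higher calls were 0 in Polycomb, Trithorax and hair, and lower calls were 0 in Polycomb, 1 in Trithorax and 5 in mesenchymal genes. Testing each probe alone gave 2 lower regional factors. With 1 sample left out, Polycomb higher calls, other homeobox lower calls and hair lower calls each ran from 0 to 1. Reversed changes were COL1A2 (0.0056 quantile, 0.0096 deposited table), KRT15 (0.15 in both), DCN (−0.10 no scaling, −0.19 mean of probes, −0.18 to 0.20 with 1 sample left out) and EZH1 (−0.0084 no scaling). The cause was not tested. Signal over background limits HOXA4, HOXA5 and HOXC13 to bounds.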

Other observations

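The mesenchymal markers, genes of fibroblasts and corneal keratocytes, included both higher and lower genes. Of 16 measured, 3 were higher, 8 were lower and 5 did not pass in corneal against epidermal cells. This share called, 68.75%, stands beside 59.5% of all genes tested, with 33.1% lower and 26.3% higher. VIM, an intermediate filament protein, had levels of 8.66 ± 0.12 and 8.60 ± 0.02 (SD, n = 3; adjusted p = 0.512, limma). DCN, a matrix proteoglycan, had levels of 8.08 ± 0.43 and 8.14 ± 0.03 (SD, n = 3; adjusted p = 0.803, limma), and COL1A2, a collagen I chain, 7.23 ± 0.04 and 7.14 ± 0.04 (SD, n = 3; adjusted p = 0.0925, limma). COL1A2 was called lower without scaling (−0.25), with the mean of its probes (−0.18) and without names from descriptions (−0.26), and had a change above 0 with quantile normalization (0.0056) and in the deposited table (0.0096). Without epidermal replicate 1 VIM (−0.12) and DCN (−0.18) were called lower. Without scaling VIM was called lower as well (−0.22). COL3A1, the collagen III chain, was 22.8-fold lower (−4.51 ± 0.04, adjusted p = 1.48e-07, limma), and POSTN, a secreted matrix protein, was at least 59.9-fold lower and at background on the corneal arrays. FN1, fibronectin, was 1.93-fold higher (adjusted p = 7.35e-06, limma).

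Among epithelial markers, SFN, a keratinocyte 14-3-3 protein, was 1.28-fold lower in corneal cells (adjusted p = 0.0131, limma), a call that quantile normalization, normexp and the deposited table each lost. DSP, the desmosomal plakin (−0.37 ± 0.19, adjusted p = 0.144, limma), and KRT15, a basal keratin (−0.14 ± 0.13, adjusted p = 0.401, limma), did not pass, though DSP was called lower without scaling (−0.53). The names of DSP and KRT15 came from descriptions or older names that were not checked against a sequence. ABCG2, a transporter of limbal stem cells, was 2.39-fold higher (adjusted p = 1.56e-06, limma) and GJA1, a gap junction protein, 1.34-fold lower (adjusted p = 0.0047, limma).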
